A study of Capra hircus with 6 samples.

Results

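The genes described here carry the signal of prolactin and growth hormone into the nucleus: the receptors *PRLR* and *GHR*, the kinase *JAK2*, the transcription factors *STAT5A* and *STAT5B*, and the inhibitors *CISH*, *SOCS1*, *SOCS2* and *SOCS3*. Their chromatin was compared between lactation and the dry period in the mammary gland of the dairy goat. A region was assigned to a gene when its centre lay inside the gene or within 50 kb of either end, whatever its p-value. This gave 46 of the 30714 regions in the authors' table. Of the 9 genes, 8 were matched by symbol to the gene table used here; *STAT5A* was not matched.

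Prolactin and growth hormone each bring together a pair of receptor chains that hold the tyrosine kinase JAK2. JAK2 then phosphorylates STAT5A and STAT5B, which dimerise, enter the nucleus and bind DNA. The products of *CISH* and the *SOCS* genes are made in response to cytokine signals and shut these signals off again. In mice this pathway is needed for milk-secreting alveoli to form and for milk protein genes to be transcribed.

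Open chromatin was mapped by ATAC-seq: the transposase Tn5 inserts adapters where nucleosomes leave the DNA exposed. There were 3 libraries of mammary epithelial cells from lactation and 3 from the dry period between lactations, in which no milk is made. The labels give no other treatment, and no breed or age, nor do they tie the libraries to separate goats. The p-values may therefore measure only technical spread. A table of differing regions cannot show whether marker genes of epithelium were open in both periods, so the label of the cells was not checked against them.

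The table gives, for each region, the authors' fold change, p-value and Benjamini-Hochberg false discovery rate (FDR) for the whole comparison of the periods, and no value per library. Library depth is therefore unknown, and no error could be put on a fold change. Regions carry names in 2 sets, here called set 1 (22884 regions) and set 2 (7830 regions). Fold changes are above 1 in both sets, so a set was read as the regions that were more open in 1 period than in the other. Which period each set stands for is stated neither in the table nor in the labels, and directions are given by set. Every listed p is under 0.001, but listing is not a call: a region was called when its FDR was under 0.05. In libraries of many cells, a change in accessibility per cell and a change in the mix of cell types cannot be told apart.

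The prolactin receptor gene was listed in set 2 alone, the kinase, *STAT5B* and *SOCS3* mostly in set 1, and the growth hormone receptor gene in neither. Over the 8 genes, 34 regions were in set 1 and 12 in set 2. The set 1 share was 73.9%, with a 95% Wilson interval, for counting error alone, of 59.7% to 84.4%. That interval treats the regions as independent, though many lie close together at 1 gene. The share lay close to the 76.6% of all 26413 listed regions within 50 kb of a protein-coding gene. Called regions numbered 12 of 46, or 26.1%, against 28.1% of those 26413 regions. In set 1 the count was 10 of 34, against a background of 33.9%, and in set 2 it was 2 of 12, against 8.98%. As a group the genes stood near the background in set split and in called share. Single genes differed from each other in the set they were listed in.

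**Figure D1:**
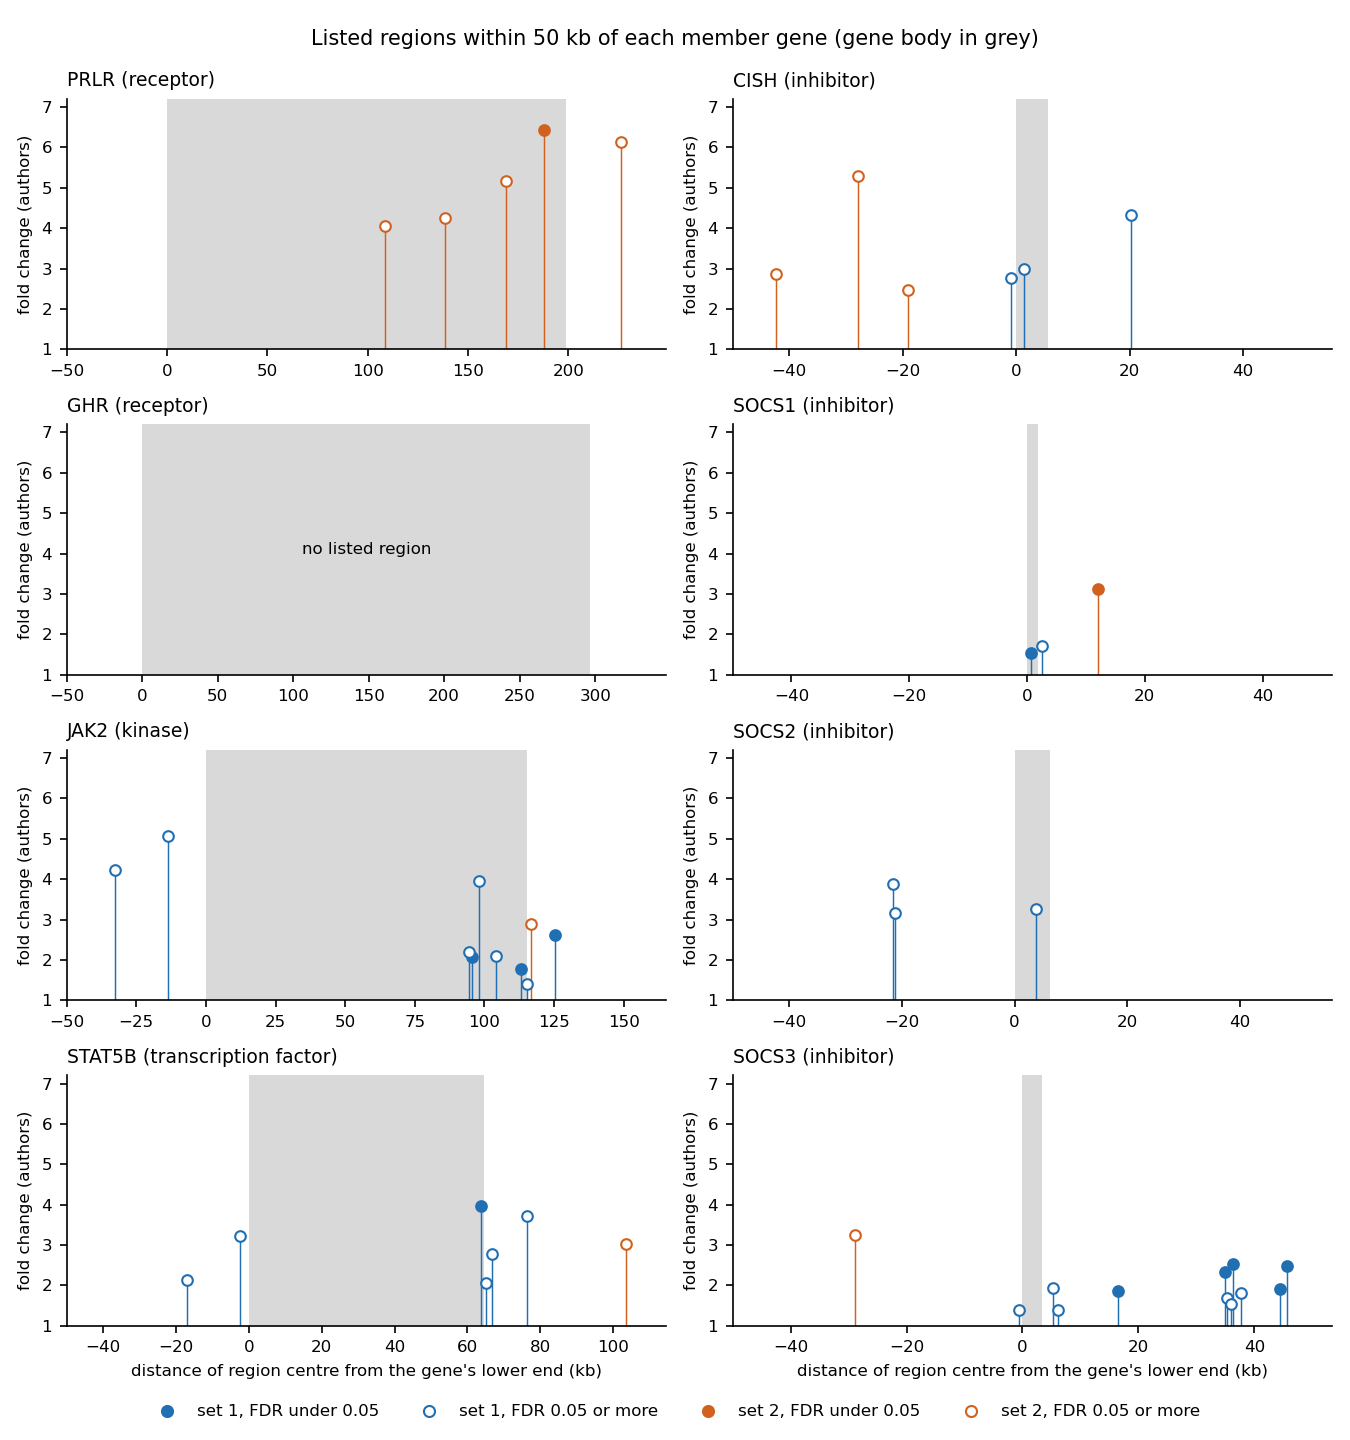
Position of each listed region relative to the lower-coordinate end of its gene (horizontal axis, kb) and its fold change in the authors' deposited table (vertical axis, linear, from 1), for the 8 matched genes with 50 kb either side; the gene body is grey, blue is set 1, orange is set 2, and filled points have an FDR under 0.05. All 5 *PRLR* regions are orange and lie toward its upper end or beyond it, *GHR* has none, and the filled *SOCS3* points lie 13.1 to 42.3 kb beyond the gene.

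Of the receptors, *PRLR*, through which prolactin acts on the secretory epithelium, had 5 listed regions, 0 in set 1 and 5 in set 2. One was called, inside the gene on chromosome 20 at 39079201 to 39079700, 10.9 kb from the nearer end. It was 500 bp wide, and the authors' deposited table gave it a 6.43-fold difference (p = 2.9e-06, FDR = 0.0324). This was the highest fold change among the 46 regions. The other 4 were 200 or 300 bp wide and did not reach the threshold.

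In order of position, the first of these 4 was at 39000201 to 39000400, with a 4.05-fold difference in the authors' deposited table (FDR = 0.738). By the authors' deposited table the next, at 39030201 to 39030500, differed 4.26-fold (FDR = 0.405), and one at 39060701 to 39061000 differed 5.17-fold (FDR = 0.681). These 3 lie inside *PRLR*, as does the called region, and all 4 are 108.6 to 187.7 kb from the lower end of this 198.6 kb gene. The fifth, at 39117601 to 39117800, lies 27.4 kb beyond the upper end, inside *AGXT2*, which encodes a mitochondrial aminotransferase. It differed 6.13-fold by the authors' deposited table (FDR = 0.821). *PRLR* had 0 regions in set 1 and 5 in set 2 with the window widened to 100000 bp, and 0 and 4 with 10000 bp or with only regions nearest to it among protein-coding genes.

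Few genes were listed this way, but the pattern was read from *PRLR* after seeing the data, so the counts here only describe it. Of 19063 protein-coding genes on the 29 numbered chromosomes, 6322 had 5 or more listed regions, and in 44 of these (0.696%) all were in set 2. Of the listed regions within 50 kb of a protein-coding gene, 58.6% of set 1 and 66.5% of set 2 lie inside one, and a long gene holds more sequence. Genes searched over at least the 298.6 kb of *PRLR* are therefore the nearer comparison. Of 434 such genes with 5 or more regions, 20 (4.61%) had all of them in set 2. These counts hold for the 50 kb window, since the narrower rules leave *PRLR* with 4 regions. A called set 2 region was present within 50 kb of 5.06% of the 19063 genes.

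*GHR*, the receptor through which growth hormone acts, had 0 listed regions in the 396.9 kb searched. By the authors' deposited table the nearest region lay 351.4 kb away, at 31527201 to 31527400 on chromosome 20, in set 1, with a fold change of 5.63 (FDR = 0.261), and its nearest protein-coding gene was *ZNF131*. A lack of listed regions was not rare: 20.3% of all protein-coding genes had none, and so did 99 of the 608 genes (16.3%) searched over at least the length of *GHR*. Whether the chromatin of *GHR* was accessible at all, in either period, cannot be read from a table of differing regions.

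*JAK2*, the kinase that both receptors share, had 10 listed regions, 9 in set 1 and 1 in set 2, and 3 of those in set 1 were called. The called region with the lowest p lay inside the gene on chromosome 8 at 39340201 to 39341000, 19.8 kb from the nearer end. Its width was 800 bp, and it differed 2.08-fold by the authors' deposited table (p = 1.52e-07, FDR = 0.000762). A second was inside the gene 2.1 kb from the upper end, at 39358201 to 39358500, with a 1.79-fold difference in the authors' deposited table (FDR = 0.0235). The third, 10.2 kb beyond that end at 39370501 to 39370800, differed 2.63-fold by the authors' deposited table (FDR = 0.023).

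Most of the *JAK2* regions lay together. A stretch of 31.1 kb, from 39339701 to 39370800, across the upper end of the gene, held 8 of the 10, 7 from set 1 and 1 from set 2. The set 2 region, at 39361901 to 39362200, was 1.6 kb beyond the gene between set 1 regions on either side, and differed 2.88-fold in the authors' deposited table (FDR = 0.752). The other 2 *JAK2* regions were on the lower side, 1 of them inside *INSL6*, a gene of the insulin family. By the authors' deposited table they had the higher set 1 fold changes at this gene, 4.24 and 5.06, with FDR values of 0.104 and 0.194. The first 94.6 kb of the gene body from its lower end held no listed region.

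*STAT5B*, a transcription factor that the kinase activates, had 7 listed regions, 6 in set 1 and 1 in set 2, with 1 called. That region lies inside the gene on chromosome 19 at 42022801 to 42023300, 0.9 kb from the upper end, and differed 3.96-fold in the authors' deposited table (p = 1.61e-05, FDR = 0.0204). The next set 1 regions followed beyond the same end. The authors' deposited table put their fold change at 2.06 at a distance of 0.7 kb (FDR = 0.123), at 2.79 for 2.3 kb (FDR = 0.0755) and at 3.71 for 12 kb (FDR = 0.0568). Together with the called region these 3 span 13.2 kb.

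The region 12 kb beyond *STAT5B* lies inside *LOC102185866*, a protein-coding gene between *STAT5B* and *STAT3*. This gene has no name in the gene table, which does not say whether it is the unmatched *STAT5A*. A set 1 region 2.3 kb below the lower end of *STAT5B* differed 3.22-fold in the authors' deposited table (FDR = 0.125). The last set 1 region lay inside *HCRT*, the gene for the hypocretin peptides, where it differed 2.13-fold in the authors' deposited table (FDR = 0.238). The set 2 region, at 42062801 to 42063000, lies inside *STAT3*, whose product carries signals of the interleukin 6 family, 39 kb from *STAT5B*. It differed 3.04-fold in the authors' deposited table (FDR = 0.478). With only regions whose nearest protein-coding gene is *STAT5B*, 4 remained in set 1 and 0 in set 2.

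Among the inhibitors, *SOCS3* had the most regions and *CISH* and *SOCS2* had none that was called. *SOCS3*, which in mice dampens signalling through STAT3 and binds JAK kinases directly, had 12 listed regions, 11 in set 1 and 1 in set 2, within 103.4 kb searched. This is 11.6 regions per 100 kb, a density that 660 of the 19063 genes (3.46%) reached. All 5 called *SOCS3* regions were in set 1, and 979 genes (5.14%) had 5 or more called set 1 regions. *SOCS3* was the densest of the matched genes and was singled out after seeing the data. Both shares are over genes of all lengths and only describe it.

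None of the *SOCS3* regions lies inside the gene. The lowest p of the 46 regions belonged to one on chromosome 19 at 53090001 to 53090800, 41 kb beyond the upper end, with a 1.92-fold difference in the authors' deposited table (p = 1.86e-15, FDR = 2.87e-10). A 900 bp region at 53062101 to 53063000, 13.1 kb beyond that end, followed with 1.87-fold in the authors' deposited table (p = 1.66e-13, FDR = 1.28e-08). Both are wide, at 800 and 900 bp, against a median width of 200 bp over the 34 set 1 regions. The remaining called regions were at 53082201 to 53082700 (2.54-fold difference in the authors' deposited table, FDR = 0.00116), at 53091501 to 53091900 (2.48, FDR = 0.00664) and at 53080701 to 53081100 (2.32, FDR = 0.0111).

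Among the 11 set 1 regions, 7, with 4 of them called, fell in 11.2 kb from 53080701 to 53091900. The outermost pair, at 41 and 42.3 kb from *SOCS3*, is nearer to *LOC102179594*, an unnamed protein-coding gene, than to *SOCS3*. Close to the gene, 3 set 1 regions lay within 3000 bp of an end. By the authors' deposited table their fold changes ran from 1.39 to 1.95, and none was called (FDR values from 0.135 to 0.252). The called regions at *SOCS3* thus depended on the window: with 10000 bp either side, 3 regions were listed and 0 were called. The set 2 region lies inside *PGS1*, a gene of cardiolipin synthesis, 28.8 kb below the lower end, with a 3.24-fold difference in the authors' deposited table (p = 4.33e-05, FDR = 0.177).

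*SOCS1*, which in mice inhibits JAK2 directly, had 3 listed regions, 2 in set 1 and 1 in set 2, and was the only gene of the 8 with a called region in each set. Of the 19063 protein-coding genes, 482 (2.53%) had both. The called set 1 region lies inside this 1.8 kb gene on chromosome 25 at 9798301 to 9798600, with a 1.54-fold difference in the authors' deposited table (p = 5.75e-05, FDR = 0.0475). In set 2, the called region at 9809801 to 9810100 lies 10.3 kb beyond the upper end and differed 3.14-fold by the authors' deposited table (p = 3.35e-06, FDR = 0.0355). It falls inside *LOC108633919*, a long noncoding RNA gene, and is nearer to *TNP2*, a gene for a sperm chromatin protein, than to *SOCS1*. Between them, 0.7 kb beyond *SOCS1*, a set 1 region differed 1.71-fold in the authors' deposited table (FDR = 0.157).

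*CISH*, a target and inhibitor of STAT5, had 6 listed regions, 3 in set 1 and 3 in set 2, with 0 called. The sets were separated by position. On chromosome 22, set 1 regions lay at 49829401 to 49829600, 0.9 kb below the lower end, and at 49831701 to 49831900, inside the gene. The authors' deposited table put their fold changes at 2.77 (FDR = 0.171) and 2.99 (FDR = 0.12). The third set 1 region, 14.7 kb beyond the upper end and inside a long noncoding RNA gene, differed 4.32-fold by the authors' deposited table (FDR = 0.21).

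All 3 set 2 regions near *CISH* lie inside *MAPKAPK3*, a gene for a kinase downstream of p38, 19 to 42.4 kb below *CISH*. The one at 49802301 to 49802800 was 500 bp wide and came closest to a call, with a 5.30-fold difference in the authors' deposited table (p = 8.74e-06, FDR = 0.0658). The others differed 2.86-fold (FDR = 0.766) and 2.47-fold (FDR = 0.843) in the authors' deposited table. *SOCS2*, the main brake on growth hormone signalling in mice, had 3 regions in set 1 and 0 in set 2, and none was called. One lies inside the gene on chromosome 5 at 23132901 to 23133100, with a 3.26-fold difference in the authors' deposited table (FDR = 0.125). The other 2, 21.5 and 21.2 kb below the lower end, differed 3.87-fold (FDR = 0.119) and 3.17-fold (FDR = 0.219) in the authors' deposited table.

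**Figure D2:**
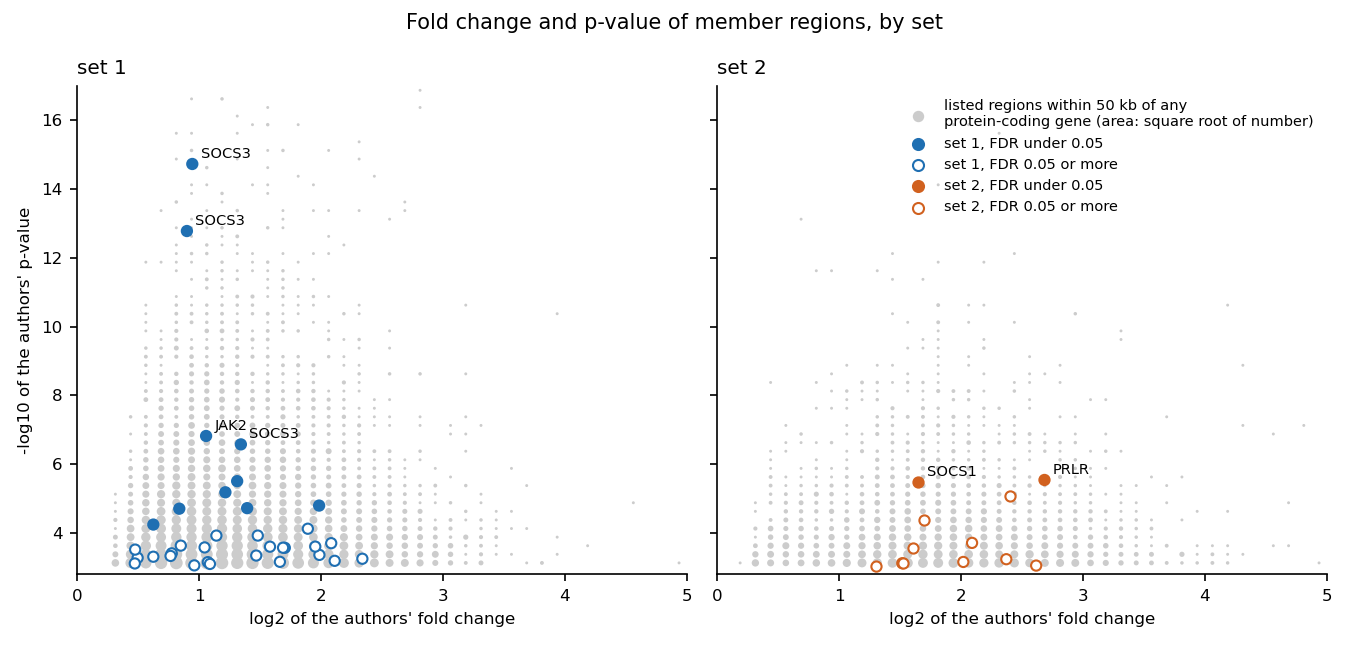
Log2 of the fold change (horizontal axis) and -log10 of the p-value (vertical axis) in the authors' deposited table for the 34 set 1 regions (left, blue) and 12 set 2 regions (right, orange) of the 8 genes, over all listed regions within 50 kb of a protein-coding gene (grey, binned); filled points have an FDR under 0.05, and grey points beyond the axis limits are not drawn. The regions with the lowest p belong to *SOCS3* and have small fold changes, while the called *PRLR* region lies far to the right.

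Fold changes and p-values were arranged differently in the 2 sets. By the authors' deposited table, the median fold change was 2.26 over the 34 set 1 regions (1.39 to 5.06) and 3.65 over the 12 set 2 regions (2.47 to 6.43). Over all listed regions within 50 kb of a protein-coding gene these medians were 2.36 and 3.50, so the larger fold changes of set 2 were shared by the whole table. The limit on p that an FDR of 0.05 implies differed too. The highest p of a called region was 6.21e-05 in set 1 and 5.63e-06 in set 2. Of the 10 called set 1 regions, 5 had a p above the set 2 limit, among them the *STAT5B* and *SOCS1* regions. Conversely 4 set 2 regions had a p that would have been called in set 1, which adds those inside *MAPKAPK3* and *PGS1* to the *PRLR* and *SOCS1* regions. At 1 limit for both sets, p under 1e-05, 6 of 34 set 1 regions passed, against a background of 18.6%, and 3 of 12 set 2 regions, against 11.1%.

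The set split inside the genes and at their ends was near that of all genes. Of the 46 regions, 14 lie inside a gene of the pathway, 10 in set 1 and 4 in set 2, and the 4 are those of *PRLR*. That is a set 1 share of 71.4%, against 74.2% of all 15975 listed regions inside a protein-coding gene. Elsewhere the 8 set 2 regions lie outside the 8 genes, and 7 of the 8 are inside another gene; the exception is the one beside *JAK2*. Of the 24 set 1 regions outside the genes, 5 are inside another gene. Noncoding RNA genes are included in these counts. No such share was worked out over all genes, so the counts only describe the regions. Within 3000 bp of an end there were 15 regions, 14 in set 1 and 1 in set 2, and each of the 6 genes other than *PRLR* and *GHR* had a set 1 region there. That set 1 share, 93.3%, is near the 89.2% of the 8974 listed regions that close to an end of any protein-coding gene. The gene table gives no strand and no exons, so the start of a gene was not told from its end, nor an exon from an intron.

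**Figure D3:**
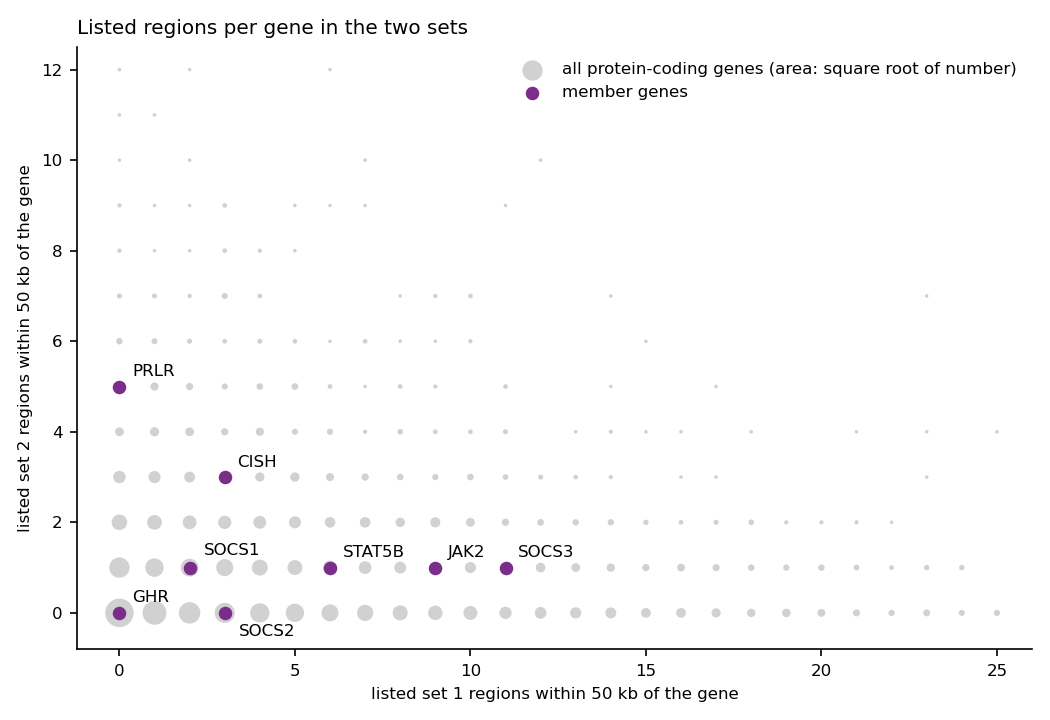
Number of listed set 1 regions (horizontal axis) and set 2 regions (vertical axis) within 50 kb of each gene, for the 8 matched genes (purple) and all 19063 protein-coding genes (grey, area growing with the square root of the number of genes); genes beyond the axis limits are not drawn. *PRLR* lies on the vertical axis at 5 set 2 regions, and *JAK2*, *STAT5B* and *SOCS3* lie along the row of 1 set 2 region with 9, 6 and 11 set 1 regions.

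In density the genes ranged from 0 regions per 100 kb searched at *GHR* and 1.67 at *PRLR* to 11.6 at *SOCS3*. *SOCS2* (2.82), *SOCS1* (2.95), *STAT5B* (4.26), *JAK2* (4.65) and *CISH* (5.68) lay between. Their median was 3.60 per 100 kb, against 1.87 over all protein-coding genes, and 7 of the 8 had a listed region, against 79.7%. A set 1 region was listed at 6 of the 8, against 71.4% of all protein-coding genes, and a set 2 region at 6 of the 8, against 37.6%. The set 2 count depended on the window. With 10000 bp either side, or with only regions nearest to the gene, set 2 regions remained at *PRLR* and *JAK2* alone. A called region was present at 5 of the 8, against 51.4% of all protein-coding genes. Neighbouring genes share these regions: 35 of the 46 lie within 50 kb of another protein-coding gene, and for 32 the gene of the pathway was the nearest.

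The edge of the window bore on the calls at *CISH* and *JAK2*: with 100000 bp either side, *CISH* had 2 called regions in place of 0 and *JAK2* had 4 in place of 3. Just inside the 50 kb edge were the *MAPKAPK3* region 42.4 kb below *CISH* (2.86-fold difference in the authors' deposited table) and the *SOCS3* region at 42.3 kb (2.48). Just outside, a set 1 region 58.8 kb from *CISH* differed 3.45-fold by the authors' deposited table (FDR = 0.21). Another, 64.1 kb from *JAK2* at 39424301 to 39424700 and nearest to *JAK2* among protein-coding genes, differed 1.97-fold by the authors' deposited table (FDR = 0.000201).

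Other genes of the pathway were also called mostly in set 1. Of 80 symbols listed for related hormones, receptors, kinases, STAT and SOCS proteins, attenuators, adaptors, partners and targets, 77 were matched. Those not matched were *PRL*, the prolactin gene, *IL2RB* and *LNK*. The last is another symbol of *SH2B3*, which is also on the list and was matched. A called region lay within 50 kb of 49 of the 77 (63.6%), against 51.4% of all protein-coding genes. In set 1 there were 48 of 77, against 48.9%, and in set 2 there were 5 of 77, against 5.06%, with 4 genes in both. The 5 were the receptor genes *CSF3R*, *EGFR* and *IGF1R*, the transcription factor gene *STAT6* and the kinase gene *PIM1*.

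By lowest p in set 2, *STAT6*, which carries the interleukin 4 signal, came first with a region on chromosome 5 at 55645801 to 55646500, 7.1 kb from an end, with a 3.59-fold difference in the authors' deposited table (FDR = 4.21e-06). A region inside *IGF1R*, the receptor of insulin-like growth factor, differed 4.02-fold by the authors' deposited table (FDR = 0.00559). For *CSF3R*, the receptor of a granulocyte growth factor, it was 2.48-fold in the authors' deposited table (FDR = 0.0299), from a region 44.1 kb from an end. Inside *EGFR*, the receptor of epidermal growth factor, a region differed 3.90-fold by the authors' deposited table (FDR = 0.0359). *EGFR* had 2 listed regions in set 1 and 5 in set 2, and *IGF1R* had 2 and 4, so that both carried more of set 2 than of set 1, while *PRLR* carried set 2 alone.

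Lowest in p on the set 1 side was *IGFBP3*, which binds insulin-like growth factors, with a 3.10-fold difference in the authors' deposited table (FDR = 6.97e-09). The region of *PTPN1*, a phosphatase that acts on JAK2, differed 1.79-fold by the authors' deposited table (FDR = 5.51e-06), and that of *SOCS7* differed 1.99-fold (FDR = 1.32e-05). The region of *EPOR*, the erythropoietin receptor, differed 3.17-fold by the authors' deposited table (FDR = 3.4e-05). These 4 regions lie outside the genes, 15 to 47.7 kb from an end. All 5 other STAT genes had a called set 1 region, against 48.9% of all protein-coding genes. For *STAT3* it is the *STAT5B* region described above. At *STAT2*, *STAT3*, *STAT4* and *STAT6* the one with the lowest p lay outside the gene, 16.4 to 48.9 kb from an end. Among the other kinases of the JAK family, *JAK1* had 3 called set 1 regions, *JAK3* had 1 and *TYK2* had 0. The classic STAT5 targets *CSN2*, *CSN1S1*, *CSN1S2* and *CSN3*, which encode the caseins, had 0 listed regions, as had 20.3% of all protein-coding genes. *LALBA*, which encodes alpha-lactalbumin, had 1 listed region, which was not called. Another milk protein gene of the list, *PAEP*, which encodes beta-lactoglobulin, had 2 regions, both called and in set 1. The one with the lower p differed 2.65-fold by the authors' deposited table (FDR = 0.0157). It lay outside the gene, 45.1 kb from an end. Of the 16 targets, 8 (50%) had a called region, close to the 51.4% of all protein-coding genes. Among the 8 were the cell cycle gene *CCND1*, the survival gene *BCL2L1* and the transcription factor gene *MYC*, all 3 in set 1.

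**Figure D4:**
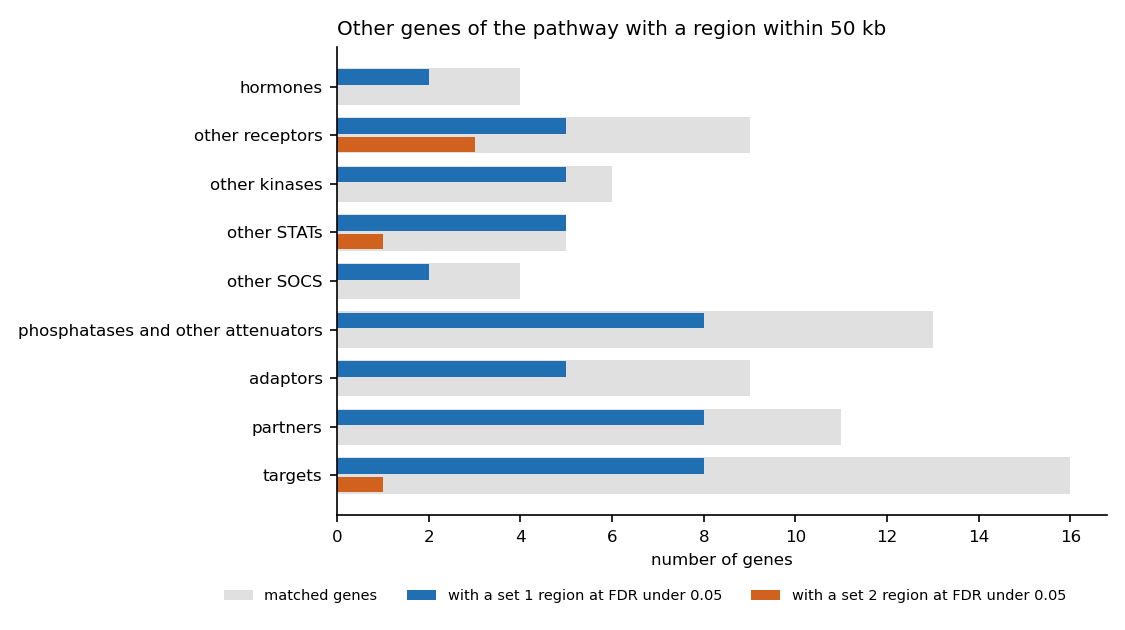
Number of matched genes in each group of the wider pathway list (grey bars), with those that have a set 1 region (blue) or a set 2 region (orange) within 50 kb at an FDR under 0.05; the horizontal axis counts genes. Called set 2 regions appear only among other receptors (3 genes), other STATs (1) and targets (1).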

How the data were processed

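Per the labels' protocols, ATAC-seq libraries were made with the Nextera Tn5 transposase from 50000 cells each and sequenced on a BGISEQ-500 instrument. Bowtie2 2.2.5 and MACS2 are named, without a role, per the submitters' processing notes. Not given in the sources used here are the genome build, the program that called differing regions, any Tn5 shift and any removal of duplicates.

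The authors deposited 1 table. Per the file headers, its values include a fold change, a linear ratio above 1 in every row; how the authors combined the libraries is not stated. The p-value and FDR are as the authors deposited them, and a given p has a larger FDR in set 2 than in set 1. The deposited signal value, a score, was not used. Widths (another unit, bp) are as deposited per the file headers. Region coordinates are the authors', counted from 1.

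Gene positions came from the RefSeq table of assembly ARS1.2; none of its coordinates are printed. Each of 29 sequences was given the chromosome whose gene ends lay most often within 1000 bp of its regions, and the match was one to one. Counting used Python 3.11.15, pandas 2.3.3 and scipy 1.17.1 and was tested on simulated regions.

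No test was run across libraries, since the table has no value per library. Named pathway genes are up to 4 per set with the lowest p. Members and lists were chosen with earlier results of these data known. A planned motif search was not run, since no sequence was used here. Windows of 10000 and 100000 bp, overlap, nearest gene and stricter thresholds were tried.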

Additional observations from a re-analysis of the deposited data

How the results depend on the processing

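Of 28 recomputed values, 25 stayed close to those reported (counts within 1.5 times, shares within the Wilson interval, medians within 1 SD of the regions) and 3 moved. With 10000 bp either side of the genes, 23 regions were listed in place of 46, and 5 were called in place of 12, because less sequence was searched. At an FDR under 0.01 the called regions also numbered 5. The set 1 share ranged from 64.7% (fold change of at least 2) to 84.4% (regions nearest to the gene), and was 82.9% without *PRLR* and 67.6% without *SOCS3*, both chosen after seeing the data. No paired analysis was possible because the table holds no value per library; leaving out libraries was not run for the same reason. Depth is unknown, so what it limits cannot be stated.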
